A study of Homo sapiens with 2 samples.

Results

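The genes described here were AKT1 and AKT2, GSK3A and GSK3B, FOXO1, FOXO3 and FOXO4, PHLPP1 and KLHL24. They were taken by name from the gene column of the deposited tables, and 9 of 9 names were found among 57485 genes. KLHL24 differs from the other 8, because the paper had already drawn it for its change in these same libraries, so its values are a description. RNA-seq was done on ARP1-SRD5A1-KD cells, that is, the human multiple myeloma (MM) line ARP1 with a lentiviral short hairpin against SRD5A1 (steroid 5α-reductase type I) under a promoter that doxycycline (Dox) switches on. There were 2 libraries, 1 of untreated cells and 1 of Dox-treated cells. Both carried the hairpin, and there was no library of Dox-treated cells without it, so Dox and the hairpin cannot be told apart. The genotype label of the Dox library names SRD5A2 where its title names SRD5A1.

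AKT is the kinase at the centre of the PI3K/Akt/mTOR pathway. It is switched on at the membrane by PI3K lipids and by phosphorylation, and PHLPP1 is a phosphatase that removes phosphate from it. Active AKT phosphorylates GSK3 and FOXO proteins near their ends and around the DNA-binding domain. GSK3 loses activity when phosphorylated, while phosphorylated FOXO is bound by 14-3-3 proteins and kept out of the nucleus, where it would otherwise switch on genes for cell cycle arrest, death and autophagy. These steps act on proteins, and RNA levels do not measure them.

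The AKT recognition motif is shown first, since it is the feature that makes GSK3 and FOXO substrates. It was searched as arginine at position 1, arginine at position 3 and serine or threonine at position 6, in the longest complete coding sequence of each gene in GENCODE release 29. The coding bases of each match in the substrates follow on GRCh38, 5′ to 3′, from the first arginine codon to 2 codons past the serine or threonine codon, which is in capitals.
GSK3A, serine codon 21, chr19:42242397-42242420, minus strand: agggcgcggactagcTCGttcgcg
GSK3B, serine codon 9, chr3:120093402-120093425, minus strand: cggcccagaaccaccTCCtttgcg
FOXO1, threonine codon 24, chr13:40666135-40666158, minus strand: cggccgcgctcgtgcACCtggccg
FOXO1, serine codon 256, chr13:40560717-40560740, minus strand: aggagaagagctgcaTCCatggac
FOXO1, serine codon 319, chr13:40560528-40560551, minus strand: cgccctcgaactagcTCAaatgct
FOXO3, threonine codon 32, chr6:108561287-108561310, plus strand: cgtccgcgatcctgtACGtggccc
FOXO3, serine codon 253, chr6:108663575-108663598, plus strand: cggcggcgggctgtcTCCatggac
FOXO3, serine codon 315, chr6:108663761-108663784, plus strand: cgttcacgcaccaatTCTaacgcc
FOXO4, threonine codon 32, chrX:71096607-71096630, plus strand: cgtccccgctcctgcACCtggccc
FOXO4, serine codon 197, chrX:71100804-71100827, plus strand: cgccgccgggccgccTCCatggat
FOXO4, serine codon 262, chrX:71100999-71101022, plus strand: cgtccacgaagcagtTCAaatgcc

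Each FOXO coding sequence held 3 motifs and each GSK3 coding sequence held 1. AKT1 and AKT2 held 2 each, KLHL24 held 1 at threonine codon 309, and PHLPP1 held 0, so 8 of 9 genes had a match. The same motif was in 4696 of 19516 coding genes (24.1%). The GSK3 and FOXO genes were chosen as AKT substrates, so a higher share among the 9 was fixed in advance and is not a result. A match is a stretch of letters and not a measured phosphorylation site.

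The library without Dox held 45918570 expected counts and the library with Dox 48728927. The targeted gene, SRD5A1, was at 13.04 FPKM without Dox and 25.88 FPKM with Dox, a log2 ratio of 0.98. A knockdown label would call for less SRD5A1 RNA in the library labelled with Dox, where there was more, so each direction given below holds only as far as the labels do. All 10 plasma cell markers examined were at 1 FPKM or more in both libraries, from 15.73 FPKM for SLAMF7 to 5444.03 FPKM for JCHAIN in the library without Dox. Of 8 markers of other cells, the highest was EPCAM, at 1.93 FPKM without Dox and 1.52 FPKM with Dox.

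FPKM is the count of a gene per 1000 bases of effective length and per 1000000 counts of the library. Ratios below are log2 of FPKM plus 0.1 with Dox over FPKM plus 0.1 without Dox. Parentheses hold 95% intervals (exact binomial, Clopper-Pearson) that reflect counting error alone. For a change of a within-library ratio, the interval joins the outer limits of both libraries and is wider than a 95% interval. With 1 library per condition there was no replicate error and no test, so an interval that leaves out 0 compares 2 libraries and not 2 conditions. All 9 genes passed the filter of at least 1 FPKM in at least 1 library, as did 14859 genes in all. On this scale 2 of the 9 genes, KLHL24 and PHLPP1, were more than 2-fold higher with Dox and 0 were more than 2-fold lower. Among all tested genes the share past 2-fold was 17.0% upward and 6.41% downward. PHLPP1 was past 2-fold on FPKM as deposited, and at 0.97 with TMM factors and 0.96 with DESeq2 size factors it was not. The median log2 ratio of the 9 genes was 0.26, and that of all tested genes was 0.15, a shared shift against which small ratios have to be read. Without KLHL24, which the paper had already drawn for its change, the median of the other 8 was 0.17. KLHL24 is also 1 of the 2 genes past 2-fold, so neither that count nor the median of 9 is free of that choice.

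**Figure D1:**
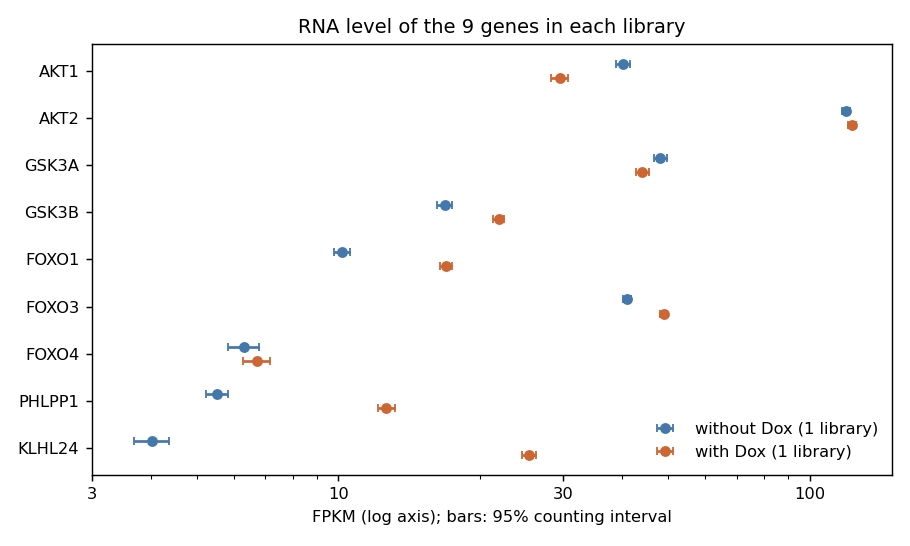
FPKM of the 9 genes in the library without Dox (blue) and the library with Dox (orange), on a log axis, with 95% counting intervals as bars. AKT2 was the highest in both libraries, and KLHL24 moved the farthest, from 4.02 to 25.41 FPKM.

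The AKT kinases are described first. AKT2 (ENSG00000105221.16, chromosome 19 from 40230317 to 40285536) was the most abundant of the 9 genes in both libraries, at 119.09 FPKM without Dox and 122.98 FPKM with Dox. Its log2 ratio was 0.05 (0.01 to 0.09), below the median of all genes. AKT1 (ENSG00000142208.16, chromosome 14 from 104769349 to 104795751) was at 40.18 FPKM without Dox and 29.45 FPKM with Dox. Its log2 ratio of -0.45 (-0.52 to -0.37) was the lowest of the 9, and 19.9% of the tested genes had a ratio as low or lower.

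AKT1 and AKT2 can be set against each other within a library, where the scaling of the library cancels. AKT2 over AKT1 was 2.96 (2.85 to 3.08) in FPKM without Dox and 4.18 (4.0 to 4.37) with Dox, a log2 change of 0.49 (0.38 to 0.61). AKT1 made up 25.2% of the summed FPKM of both without Dox and 19.3% with Dox, and AKT2 made up the rest. On FPKM as deposited the sum itself was nearly level, at 159.27 FPKM without Dox and 152.43 FPKM with Dox. With TMM factors both genes were lower with Dox, at log2 ratios of -0.65 for AKT1 and -0.16 for AKT2. From counts without length their log2 ratios were -0.60 and -0.15. On those scales the sum was therefore lower with Dox and the level sum belongs to the deposited FPKM.

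GSK3A and GSK3B encode the kinases that AKT inactivates, and they lay on either side of 0. GSK3A (ENSG00000105723.11, chromosome 19 from 42230186 to 42242625) was at 48.19 FPKM without Dox and 44.10 FPKM with Dox, a log2 ratio of -0.13 (-0.19 to -0.06). GSK3B (ENSG00000082701.15, chromosome 3 from 119821323 to 120094417) was at 16.79 and 21.87 FPKM, a log2 ratio of 0.38 (0.32 to 0.44). GSK3B over GSK3A was thus 0.348 (0.332 to 0.365) without Dox and 0.496 (0.476 to 0.517) with Dox. On FPKM as deposited the sum of both stayed at 64.98 and 65.97 FPKM. With TMM factors the log2 ratios were -0.34 for GSK3A and 0.17 for GSK3B, and from counts without length -0.17 and 0.68. The level sum therefore belongs to the deposited FPKM here too. GSK3A remained the more abundant RNA in both libraries.

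The 3 FOXO genes encode the transcription factors that AKT keeps out of the nucleus, and each had a ratio above 0. FOXO1 (ENSG00000150907.7, chromosome 13 from 40469953 to 40666597) was at 10.17 FPKM without Dox and 16.93 FPKM with Dox, a log2 ratio of 0.73 (0.66 to 0.80), higher than in about 75.8% of tested genes. FOXO3 (ENSG00000118689.14, chromosome 6 from 108559835 to 108684774) was at 40.93 and 48.92 FPKM, a log2 ratio of 0.26 (0.22 to 0.29). FOXO4 (ENSG00000184481.16, chromosome X from 71096197 to 71103535) was at 6.30 and 6.71 FPKM. Its log2 ratio of 0.09 (-0.05 to 0.23) was within counting error of 0.

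FOXO3 was the leading family member in both libraries, with 71.3% of the summed FOXO FPKM without Dox and 67.4% with Dox. The share of FOXO1 was 17.7% and 23.3%. FOXO3 over FOXO1 was 4.02 (3.86 to 4.2) without Dox and 2.89 (2.79 to 2.99) with Dox, a log2 change of -0.48 (-0.59 to -0.37). FOXO4 over FOXO3 was 0.154 and 0.137, and its log2 change of -0.17 had an interval from -0.38 to 0.04. FOXO6 was listed with 2 and 5 counts, at the level of the 3-count floor of these libraries. The processed pseudogene FOXO3B, which is close in sequence to FOXO3, was listed with 27.99 and 12.34 counts beside 11657 and 15800 for FOXO3 itself.

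PHLPP1 (ENSG00000081913.13, chromosome 18 from 62715450 to 62980433), the AKT phosphatase, was at 5.53 FPKM without Dox and 12.63 FPKM with Dox. Its log2 ratio was 1.18 (1.08 to 1.28), higher than in about 86.5% of tested genes. Its paralog PHLPP2 was at 1.65 and 1.94 FPKM. PHLPP1 over the sum of AKT1 and AKT2 was 0.0347 in FPKM without Dox and 0.0829 with Dox, a log2 change of 1.25 (1.11 to 1.40). That change depends on the length by which the counts were divided, and from counts without length it was 0.92. It stayed at 1.25 with TMM or DESeq2 size factors, with which the ratio of PHLPP1 itself missed the 2-fold mark.

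KLHL24 (ENSG00000114796.15, chromosome 3 from 183635568 to 183684477) encodes a BTB and Kelch domain protein that serves as a substrate adaptor of cullin-3 ubiquitin ligases. It was the lowest of the 9 genes without Dox, at 4.02 FPKM, and the fifth highest with Dox, at 25.41 FPKM. The counts were 529 and 3397, and the log2 ratio was 2.63 (2.50 to 2.77), higher than in about 97.5% of tested genes. Of 37 Kelch-like genes 25 were tested, and KLHL24 ranked 2 among them on FPKM and 3 per 1000000 counts without length. KLHL29 ranked above it with a log2 ratio of 2.70 but from 0.12 to 1.33 FPKM, and KLHL32 followed at 2.19 (1.52 to 2.95) from 0.25 to 1.5 FPKM. Without length KLHL29 was at 3.40 and KLHL32 at 3.24, from 27 and 19 counts without Dox, and KLHL24 at 2.59. At the other end, KLHL18 was at 13.73 FPKM without Dox and 6.62 FPKM with Dox, and KLHL25 at 1.55 and 0.72 FPKM. The median of the 24 other tested Kelch-like genes was 0.25, with 3 more than 2-fold higher (12.5%, beside 17.0% of all tested genes), KLHL22 being the third, and 2 lower (8.33%, beside 6.41%). Without length, 4 were higher and 0 lower, beside 16.2% and 5.61% of all tested genes, and KLHL18 was at -0.56.

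By level, the order without Dox was AKT2, GSK3A, FOXO3, AKT1, GSK3B, FOXO1, FOXO4, PHLPP1 and KLHL24. FOXO3 (40.2 to 41.7 FPKM) and AKT1 (38.9 to 41.5 FPKM) overlapped in their counting intervals. FOXO4 (lower limit 5.842 FPKM) and PHLPP1 (upper limit 5.838 FPKM) came within rounding of each other without overlapping. With Dox the order was AKT2, FOXO3, GSK3A, AKT1, KLHL24, GSK3B, FOXO1, PHLPP1 and FOXO4. Between neighbours in that order no counting intervals overlapped, which says nothing about the spread between cultures. The 3 FOXO genes together were at 0.360 of AKT1 plus AKT2 without Dox and at 0.476 with Dox.

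The deposited effective length of a gene is a mean over its transcripts weighted by their estimated abundance, and it differed between the libraries. For PHLPP1 it was 5152 bases without Dox and 3586 bases with Dox, and for GSK3B 4081 and 5039 bases. These were the 2 of the 9 genes whose lengths differed by over 20%, as did those of 9.55% of tested genes. Since FPKM divides by this length, the same counts were also compared per 1000000 counts without any length, a scale added after the values were seen.

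On counts per 1000000, PHLPP1 was at 28.5 without Dox and 45.3 with Dox, and its log2 ratio dropped from 1.18 to 0.67, below 2-fold. GSK3B went the other way, with 68.5 and 110.2 counts per 1000000 and a log2 ratio of 0.68 in place of 0.38. AKT2 changed sign, from 0.05 to -0.15, and AKT1 was at -0.60. FOXO1 and KLHL24 were nearly the same on both scales, at 0.71 and 2.59 per 1000000 counts. On this scale 1 of the 9 genes, KLHL24, was more than 2-fold higher, beside 16.2% of all tested genes, and 0 were more than 2-fold lower, beside 5.61%. AKT1, AKT2 and GSK3A were below 0 and the other 6 genes above 0.

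**Figure D2:**
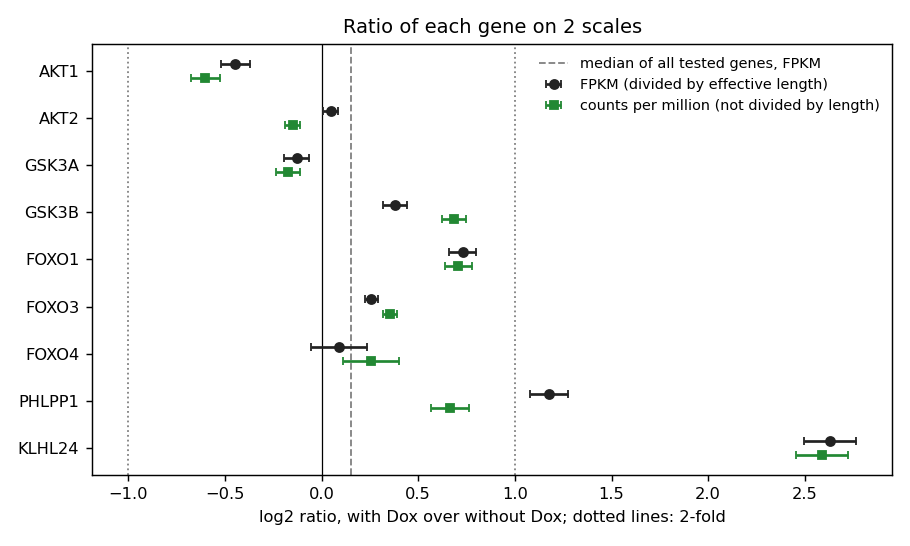
Log2 ratio with Dox over without Dox for each gene, from FPKM (black circles) and from counts per 1000000 (green squares), with 95% counting intervals; the dashed line is the median of all tested genes on FPKM (0.15) and the dotted lines mark 2-fold. PHLPP1 passed 2-fold on FPKM only, at 1.18 against 0.67, and KLHL24 passed it on both scales.

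The lengths can be read against the annotated transcripts. PHLPP1 has 7 listed transcripts, of which the longest, of 6390 bases, holds a coding sequence of 1717 codons and the next is 2198 bases long. The mean lengths of 5395 bases without Dox and 3831 bases with Dox bound the share of molecules assigned to the longest transcript at 76.3% to 83.0% and 39.0% to 56.2%. For GSK3B the longest transcript, of 7711 bases, was bounded at 44.2% to 53.4% in the library without Dox, and at 60.1% to 66.6% in the other. For FOXO4 the bounds on the 3301-base transcript were 67.4% to 78.8% and 82.7% to 88.7%. In these 3 genes the bounds of the libraries did not overlap. They come from the same estimate as the lengths and have no error of their own, and whether the estimate or the RNA differed was not tested.

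For FOXO1, 99.0% to 99.3% of molecules without Dox and 96.6% to 97.6% with Dox were assigned to the 5735-base transcript. These bounds did not overlap either. For KLHL24 the bounds on the 7380-base transcript overlapped, at 15.2% to 38.9% and 12.8% to 37.2%. The bounds for the longest AKT1, AKT2, GSK3A and FOXO3 transcripts started at 0% in both libraries. In the annotation AKT1 shares 663 exonic bases with AL583722.2 on the opposite strand. The sources used here do not say whether counting used strand, so reads of that pair cannot be told apart. On the same strand GSK3A shares 479 bases with AC006486.1 and FOXO1 shares 269 bases with LINC00598, and strand would not separate those reads. None of these overlapping genes was found by that name among the deposited genes, so no counts of theirs can be given.

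FOXO proteins bind DNA at a core that reads TGTTTAC, and a looser core with any base at the sixth position, TGTTTNC, includes it. Both were searched on both strands of the RefSeq promoter windows on GRCh38.p14, from 250 bases before to 50 bases after each start site, with 14 windows for the 9 genes. TGTTTNC was in 4 of the 14 windows, for GSK3B, KLHL24, FOXO3 and FOXO4, beside 18% of 35116 windows in all. The stricter TGTTTAC was in 1 window, that of FOXO4, beside 3.42% in all. The C/EBP-ATF element TGATGNAAN, with N as any base, was in 0 of the 14 windows, beside 3.61% in all. The matches are shown in capitals on the strand of the gene, to show how the KLHL24 match, in the gene with the highest ratio of the 9, compares with the others.
KLHL24, chr3:183635602-183635630, plus strand: ggacggtcacaTGTTTCCtttgttgtgag
FOXO4, chrX:71095863-71095891, plus strand: cccggcgagtgGTAAACAgagacgtcagg
FOXO3, chr6:108588688-108588716, plus strand: ctcgctgactgGGAAACAatgggctgggc
GSK3B, chr3:120094649-120094677, minus strand: cgggaggagccGCAAACAaacgacgtccg

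The KLHL24 match began 10 bases before the RefSeq start site. These windows describe letters only, and no binding was measured here.

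The rest of the pathway was described with 5 lists, none of which counts the 9 genes themselves. The lists overlap, with 165 entries for 158 different genes, and CDKN1A is both among the other AKT substrates and among the FOXO targets. Of 34 AKT regulators 29 were tested, 3 were more than 2-fold higher (10.3%, beside 17.0% of all tested genes), 2 were lower (6.90%, beside 6.41%), and the median was 0.20. TRIB3, a pseudokinase known to bind AKT, was at 12.11 FPKM without Dox and 166.97 FPKM with Dox, a log2 ratio of 3.77 (3.69 to 3.86). The phosphatase 2A regulatory subunit PPP2R5B was at 4.49 and 11.10 FPKM. PPP2R1B, a scaffold subunit of the same phosphatase, was at 19.21 and 7.55 FPKM, and HSP90AB1, the chaperone that stabilises AKT, at 1650.74 and 550.57 FPKM, log2 ratios of -1.34 and -1.58. The third higher gene was TRIB1, and the other 24 tested regulators were within 2-fold.

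Of the 24 tested genes among 25 other AKT substrates, 1 was more than 2-fold higher, the cell cycle inhibitor CDKN1A, and 1 lower, the hexokinase HK2, at 10.44 FPKM without Dox and 4.86 FPKM with Dox. Each was 4.17% of the list, beside 17.0% higher and 6.41% lower among all tested genes, and the median was 0.27. ACLY, which makes cytosolic acetyl-CoA, was at 151.15 and 78.08 FPKM, and the caspase inhibitor XIAP at 15.26 and 28.48 FPKM. The lipid kinase PIKFYVE was at 4.67 and 7.85 FPKM.

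Of 32 FOXO regulators 31 were tested, with 2 more than 2-fold higher (6.45%), 1 lower (3.23%) and a median of 0.09. Both shares were below the 17.0% and 6.41% of all tested genes, and with TMM or DESeq2 size factors 0 were higher and 2 lower. The deacetylase SIRT1 was at 7.07 and 15.79 FPKM, and the acetyltransferase KAT2B at 5.89 and 13.04 FPKM. The exportin XPO1, which carries FOXO out of the nucleus, was at 106.92 FPKM without Dox and 58.25 FPKM with Dox. The FOXO kinase DYRK1A was at 15.11 and 28.75 FPKM. The 1 lower gene was the 14-3-3 gene SFN, at 2.26 and 0.50 FPKM.

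Of 46 FOXO target genes 45 were matched and 33 tested. More than 2-fold higher were 11 (33.3%), beside the 17.0% of all tested genes, and 0 were lower, beside 6.41%, with a median of 0.57. Without length, 12 were higher and 1, S1PR1, was lower, beside 16.2% and 5.61% of all tested genes. The stress sensor SESN2 was at 6.87 FPKM without Dox and 172.87 FPKM with Dox, a log2 ratio of 4.63. The death gene BBC3 was at 2.80 and 14.91 FPKM, the cyclin gene CCNG2 at 2.02 and 10.83 FPKM, and the death gene PMAIP1 at 12.38 and 35.71 FPKM. The other 7 were BCL6, CDKN1A, INSR, EIF4EBP1, RAG1, MAP1LC3B and FBXO32. BBC3, PMAIP1, CDKN1A and SESN2 are also known targets of p53, and SESN2 and EIF4EBP1 also of ATF4, so the list does not separate FOXO from these factors. Textbook FOXO targets outside the 11 included BCL2L11 at 22.28 and 28.53 FPKM, CDKN1B at 63.36 and 87.51 FPKM, and KLF2 at 58.70 and 54.33 FPKM. Of the 33 tested targets, 24 had a ratio above 0. Those below 0 included SOD2, at 37.65 FPKM without Dox and 23.40 FPKM with Dox, and S1PR1, at 4.52 and 2.45 FPKM. Without length the log2 ratios of these 2 genes were -0.25 and -1.01. The targets named outside the 11 were chosen after their values were seen.

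Of 28 GSK3 partners 27 were tested, with 1 more than 2-fold higher (3.70%, beside 17.0% of all tested genes), 0 lower (beside 6.41%) and a median of 0.12. The 1 was JUN, a GSK3 substrate, at 2.32 FPKM without Dox and 18.50 FPKM with Dox, a log2 ratio of 2.94. NFE2L2 was at 27.53 and 50.36 FPKM, CREB1 at 20.65 and 32.97 FPKM, and the cyclin gene CCNE1 at 21.83 and 13.56 FPKM. The other 26 tested partners were within 2-fold.

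**Figure D3:**
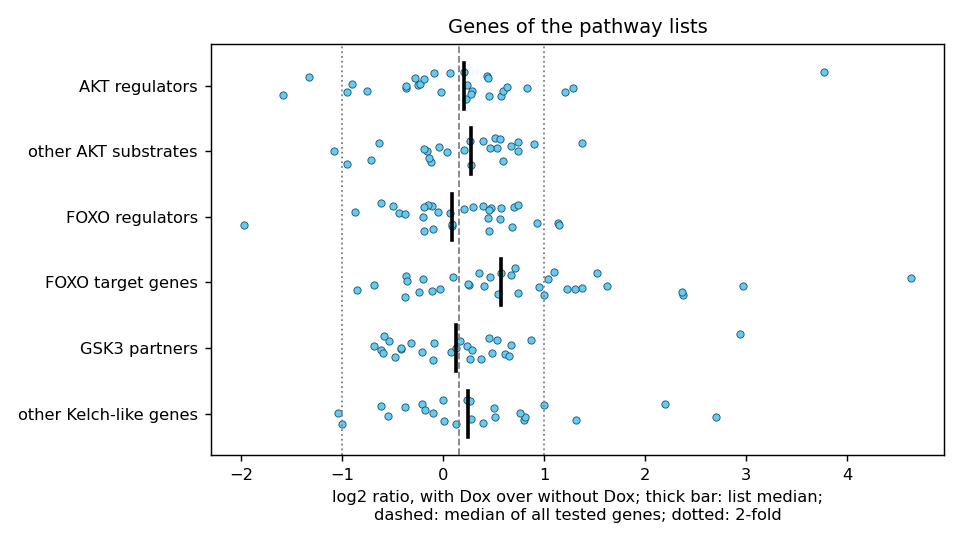
Log2 ratio with Dox over without Dox of each tested gene in the 5 pathway lists and of the other Kelch-like genes; thick bars are list medians, the dashed line the median of all tested genes (0.15), and the dotted lines 2-fold. The FOXO target genes had the highest median (0.57), with SESN2 farthest to the right at 4.63, and TRIB3 (3.77) stood apart among the AKT regulators.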

How the data were processed

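Poly(A) RNA of 1 library per condition was sequenced as paired 150-base reads (Illumina NovaSeq). The authors deposited expected counts, TPM and FPKM per gene, with lengths and effective lengths, in the column format of RSEM. The submitters' notes name Bowtie 0.12.2, HISAT2 2.1.0, StringTie 1.3.4d and hg19, without saying what each was used for. The tables hold no coordinates, so GRCh38 coordinates were taken from GENCODE release 29, which contains 202888 of the 204675 transcripts listed. The deposited TPM summed to 1000000 and 999999, and the deposited FPKM to 911506 and 852316. At this depth 3 counts equal 0.0653 and 0.0616 per 1000000.

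Log2 ratios were computed from FPKM with a pseudocount of 0.1, which understates the change of low genes, for genes that reached 1 FPKM in either library. Intervals of a change of a within-library ratio combine the outer limits of both libraries. No p-value was computed. edgeR 4.0.16 (TMM) and DESeq2 1.42.0 in R 4.3.3 gave scaling factors from the rounded expected counts of genes with at least 10 counts, and Python 3.11.15 with pandas 2.3.3 and scipy 1.17.1 the rest. The log2 ratio, the 2-fold count and the counting interval were tested on simulated counts, with the same effective lengths in both libraries. Changes of length, transcript bounds, scaling factors and motif searches were not tested in this way. The genes and lists were chosen with earlier results of these data known. Of each list, the up to 4 genes with the largest absolute log2 ratio at 5 FPKM or more were named, and of the Kelch-like genes the 2 highest and 2 lowest, besides the 9 genes, their paralogs and SRD5A1; others named were chosen after their values were seen. Some genes that these rules cover are not reported here.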

Additional observations from a re-analysis of the deposited data

How the results depend on the processing

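No paired analysis was possible because there was 1 library per condition. Counts per 1000000 without length, and the ratios of PHLPP1 and of the FOXO genes to AKT1 plus AKT2, were added after the data were seen. KLHL24 stayed more than 2-fold higher in 8 of 8 alternatives, with log2 ratios from 2.40 to 2.73. PHLPP1 ranged from 0.67 to 1.27 and was not past 2-fold with TMM factors, DESeq2 size factors or counts per 1000000, where 1 of the 9 genes was. AKT1 and GSK3A stayed below 0 and GSK3B, FOXO1 and FOXO3 above 0 in all 8, while AKT2 had the other sign in 3 and FOXO4 in 2. The median of the 9 genes was 0.35 with TPM, 0.049 with TMM factors, 0.038 with DESeq2 size factors and 0.35 per 1000000 counts. The median of all tested genes was -0.05 with TMM factors and -0.06 with size factors, so the signs of small ratios rest on the scaling. The split over all genes was 2521 higher and 953 lower on FPKM, and the lower count was 1527 with TMM factors and 1554 with size factors.

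The log2 changes of within-library ratios moved only per 1000000 counts, to 0.86 for GSK3B over GSK3A, -0.36 for FOXO3 over FOXO1, 0.92 for PHLPP1 over AKT1 plus AKT2 and 0.67 for the FOXO genes over AKT1 plus AKT2. FOXO targets more than 2-fold higher were 8 with a pseudocount of 1 FPKM, 9 with TMM or size factors and 13 with TPM. At 5 FPKM or more they were 7, but fewer genes were tested there and that number is not given, so no share follows. With TMM factors, size factors or counts per 1000000, 1 target was lower. Over all tested genes, 1527 were lower with TMM factors and 1554 with size factors, beside 953 on FPKM as deposited. Those higher were 1946 and 1913, beside 2521. Per 1000000 counts, 2403 of all tested genes were higher and 833 lower, and with TPM 2834 and 781. The list counts of this paragraph have to be read against these shifts of the whole table. Unless the filter changed, they are out of 29 AKT regulators, 24 other AKT substrates, 31 FOXO regulators and 33 FOXO targets, beside 14859 genes in all. AKT regulators more than 2-fold lower were 4 with TMM factors and with size factors. FOXO regulators had 0 higher and 2 lower genes with both, and 0 lower at 5 FPKM or more. Other AKT substrates had 2 lower genes with both and per 1000000 counts, 0 lower with TPM, 0 in either direction once 1 FPKM was the pseudocount, and 0 higher at 5 FPKM or more. With a pseudocount of 1 FPKM, 1606 of all genes were higher and 651 lower. With no filter 4735 were higher and 1897 lower, and at 5 FPKM or more 1256 and 603. Causes of these shifts were not tested beyond the construction of each alternative. Depth limits FOXO4, whose 701 and 889 counts leave its ratio within counting error of 0, and FOXO6.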
